A study of Homo sapiens with 18 samples.

Results

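The 8 genes described here encode the transcription factors PHOX2A, HAND2, GATA2, GATA3, ISL1, TBX2, TFAP2B and SOX11, which are counted among the factors that define the adrenergic state of neuroblastoma. They were taken by gene symbol from the 57905 Ensembl gene IDs counted, by a rule that uses no measured value, though the set was put together with earlier results of these data known. They were measured in BE(2)-m17, a human neuroblastoma cell line. All cells carried the transposable vector pSBbi-Hyg-APP, which expresses the amyloid precursor protein. The empty vector line, called Puro, carried pSBbi-Pur as well, and the other line carried pSBbi-Pur-ABCC1(WT), which expresses the export pump ABCC1 from a codon-optimized cDNA. RNA was extracted on day 4 after plating in 3 experiments named RNA1, RNA2 and RNA3, with 3 libraries per line in each and 18 in all. The lines were stably selected after transfection, and each experiment compared 1 line of each kind, so the 3 libraries of a line measure the spread between weekly platings of that line. By the order in which the paper describes them, RNA2 used the cryopreserved lines of RNA1, and RNA3 used lines made by a new transfection; the labels give only the numbers.

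Neuroblastoma arises from the sympathetic branch of the neural crest. In the embryo PHOX2A, HAND2, GATA2 and GATA3 act downstream of BMP signals to switch on the noradrenaline-making enzymes of sympathetic neurons, while ISL1 is needed for their survival and maturation. In adrenergic neuroblastoma cells such factors bind one another's enhancers together with MYCN and form a core regulatory circuit. A second, mesenchymal state of the same tumors lacks most of them.

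The labels were checked first. Exogenous ABCC1 received 51035 to 594404 counts in each ABCC1 library and 0 to 15 in each Puro library. The assigned counts came to between 27433393 and 57937653 per library in RNA1, 19577853 and 30996228 in RNA2, and 8866994 and 13332413 in RNA3. All 8 markers of adrenergic neuroblastoma exceeded a mean of 1 CPM (read counts scaled to a common library size) in every group, with a summed level of 7771 to 12565 CPM. In RNA1 none of 5 blood, 3 endothelial and 4 epithelial markers reached 1 CPM, and 2 of 5 Schwann cell markers did. Of 6 markers of mesenchymal cells or fibroblasts, 4 reached it in Puro and 5 in ABCC1 cells. In RNA2 and RNA3, 3 to 4 of the blood markers and all markers of the other lists reached it. Summed endothelial levels were 24.9 CPM in Puro and 12.0 CPM in ABCC1 cells of RNA2 and 67.0 and 54.8 CPM in RNA3. Summed blood levels were 10.8 CPM in Puro and 5.46 CPM in ABCC1 cells of RNA2 and 33.8 and 20.2 CPM in RNA3. The 350 olfactory receptor genes, taken as silent here, gave a background of 0.00438 CPM per kb of exon in Puro cells of RNA1, 0.586 in RNA2 and 1.59 in RNA3. In ABCC1 cells it was lower in each experiment, at 0.00345, 0.307 and 1.26, as were the endothelial and blood sums of RNA2 and RNA3. The part of those markers in the values of the 8 factors was not tested. Up to 0.0503% of a member's level in RNA1, 8.78% in RNA2 and 19.8% in RNA3 could be background of this size, the highest share each time being that of TBX2.

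The 8 factors differed widely in level. In Puro cells of RNA1, PHOX2A, a homeodomain protein, stood first with 245 ± 15.2 CPM per kb of exon (SD, n=3), and HAND2, a basic helix-loop-helix protein, second with 236 ± 22.1. Their ranges overlapped. They ranked 93 and 96 among 19263 protein-coding genes, within the top 0.498%. Their order depends on the length used, since reads on 2 genes were not assigned and HAND2 shares more of its exons with another gene. Per kb of exon shared with no other gene, a length chosen after seeing the data, HAND2 had 299.7 ± 28.1 and PHOX2A 249 ± 15.4, without overlap.

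The zinc finger proteins GATA3 and GATA2 followed with 169 ± 7.99 and 91.1 ± 5.81 CPM per kb. TFAP2B, an AP-2 factor, had 56.5 ± 2.48 and ISL1, a LIM homeodomain protein, 42.0 ± 0.478. SOX11, an HMG box protein, had 19.7 ± 0.584 and TBX2, a T-box repressor, 10.4 ± 0.228. Beyond PHOX2A and HAND2, no neighbors in this order overlapped. TBX2 still stood in the top 24.9% of protein-coding genes.

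The order was nearly the same in the other experiments, which by the paper used another library kit and another sequencing instrument. In RNA2, PHOX2A and HAND2 again led with overlapping ranges, at 98.9 ± 15.8 and 98.0 ± 11.6 CPM per kb, and TBX2 was last with 7.98 ± 0.384. Only SOX11 and ISL1 changed places there, with ranges that overlapped (12.9 ± 2.14 and 12.0 ± 3.17). Per kb of unshared exon HAND2 had 125 ± 14.7 and PHOX2A 101 ± 16.1 in RNA2, and 118 ± 32.6 and 152 ± 42.1 in RNA3, each pair with overlap, and the ranges of ISL1 and SOX11 overlapped in RNA2 as before. In RNA3, PHOX2A was at 150 ± 41.4, HAND2 at 92.5 ± 25.6, GATA3 at 87.2 ± 24.2 and GATA2 at 63.4 ± 16.4, and each of these overlapped the next. TFAP2B had 37.5 ± 7.06, apart from both neighbors, and TBX2 was again last with 10.0 ± 0.186.

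**Figure D1:**
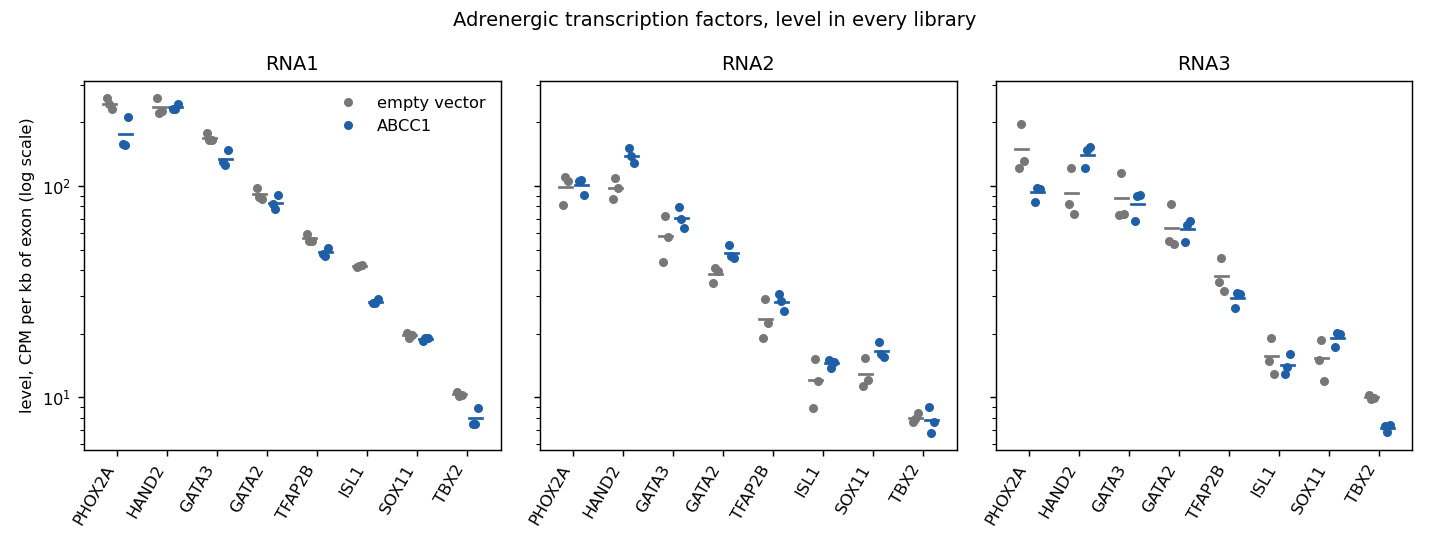
Level of each factor in every library, in CPM per kb of exon on a log scale, for the 3 experiments. Each point is 1 library, each line the mean of 3, gray for empty vector (Puro) and blue for ABCC1 cells; PHOX2A and HAND2 lead and TBX2 is last in each experiment.

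The factors belong to families of related genes, which were compared by level. In Puro cells of RNA1, ISL2 had 0.0936 CPM per kb against 42.0 for ISL1. Next to TFAP2B with 56.5, TFAP2D had 1.53, TFAP2E 0.299, TFAP2A 0.0723 and TFAP2C 0.0129.

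HAND1 was high as well, with 80.8 CPM per kb, below HAND2. In the GATA family GATA4 had 11.8 and GATA6 0.970, while GATA1 had 0.00824 and GATA5 0.00822, from 0 to 2 counts per library. In the other 2 families the gene described here was not the leading one. TBX3 had 63.6 CPM per kb, above TBX2 with 10.4, whereas TBX4 had 0.139 and TBX5 no count in 3 libraries, which allows up to 0.0252 CPM per kb (3 counts in the smallest library, counting error only). SOX12 with 52.4 and SOX4 with 30.4 both stood above SOX11 with 19.7. These comparisons rest on RNA1, since the low paralogs lay near the background in RNA2 and RNA3.

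**Figure D2:**
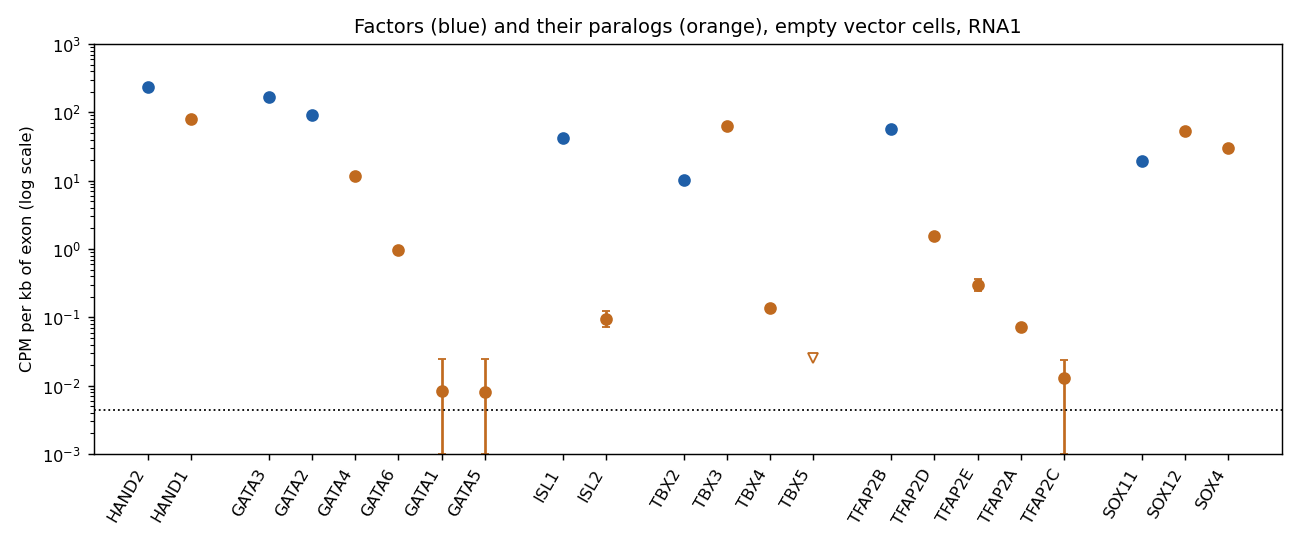
Mean level of the factors (blue) and of paralogs (orange) in empty vector cells of RNA1, in CPM per kb of exon on a log scale. Bars give the range over 3 libraries, the dotted line is the mean of the olfactory receptor genes, bars that reach the axis include a library with no count, and the open triangle is the limit that 3 counts allow for TBX5; ISL1 and TFAP2B stand far above their relatives, and TBX2 and SOX11 below some of theirs.

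The genes lie on 8 chromosomes (GRCh37, the build of the counts). PHOX2A is at chr11:71950121-71956708 on the minus strand and HAND2 at chr4:174446120-174451380 on the minus strand. GATA2 is at chr3:128198270-128212028 on the minus strand, GATA3 at chr10:8095567-8117161, ISL1 at chr5:50678921-50690564, TBX2 at chr17:59477257-59486827, TFAP2B at chr6:50786436-50815326 and SOX11 at chr2:5832799-5841516, all on the plus strand. SOX11 has 1 exon. Reads were counted over all exons of a gene without regard to strand, and reads on 2 genes were not assigned. This touches HAND2 most, since 769 of its 3601 exonic bases (21.4%) also lie in the opposite-strand gene HAND2-AS1. ISL1 shares 246 bases (7.65%) with ISL1-DT, while the overlaps of PHOX2A, TBX2 and SOX11 are of 29, 28 and 74 bases.

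The promoters of PHOX2A, HAND2 and ISL1 are shown because the ratio of the first pair differed between the lines in all experiments and ISL1 had the lowest log2FC of RNA1. They are the 250 bases before the annotated start in RefSeq (GRCh38.p14), which held windows for 6 of the 8 genes. The motifs searched, on both strands, were the E-box CANNTG bound by factors such as HAND2, AGATAA for GATA factors, GCCNNNGGC for AP-2 factors and the homeodomain core TAATTA. Capitals mark their matches. The PHOX2A window (chr11:72244177-72244426, minus strand) is 73.2% G and C and holds none of these letters. The HAND2 window (chr4:173530230-173530479, minus strand), 49.6% G and C, holds CACTTG at base 9 and TAATTA at base 76, which runs into TTATCT, the reverse complement of AGATAA, at base 79. The ISL1 window (chr5:51383198-51383447, plus strand) holds CAGCTG at base 107 and AGATAA at base 220. GCCNNNGGC was found in windows of GATA2 and GATA3 and in none of the other 4 genes.
PHOX2A: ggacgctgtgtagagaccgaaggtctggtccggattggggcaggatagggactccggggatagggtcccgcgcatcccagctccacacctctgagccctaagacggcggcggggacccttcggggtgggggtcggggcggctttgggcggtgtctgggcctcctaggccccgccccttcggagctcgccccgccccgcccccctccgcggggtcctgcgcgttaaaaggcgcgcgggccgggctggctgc
HAND2: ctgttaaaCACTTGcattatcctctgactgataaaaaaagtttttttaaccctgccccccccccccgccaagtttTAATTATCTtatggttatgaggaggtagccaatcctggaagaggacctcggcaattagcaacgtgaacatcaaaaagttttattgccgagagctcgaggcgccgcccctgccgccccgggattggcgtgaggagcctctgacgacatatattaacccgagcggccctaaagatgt
ISL1: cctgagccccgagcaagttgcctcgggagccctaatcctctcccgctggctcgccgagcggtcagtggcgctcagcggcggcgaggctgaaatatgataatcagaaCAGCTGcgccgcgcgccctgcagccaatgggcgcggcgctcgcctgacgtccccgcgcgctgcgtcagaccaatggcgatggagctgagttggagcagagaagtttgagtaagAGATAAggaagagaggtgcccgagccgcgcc
Among 35116 promoter windows of this length, 61.8% held CANNTG, 9.17% AGATAA, 19.8% GCCNNNGGC and 4.35% TAATTA. A match is only a description of the letters.

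In RNA1, ABCC1 cells had less RNA of 5 of the 8 factors than Puro cells by the edgeR quasi-likelihood test at an adjusted p of at most 0.05, and more of none. ISL1, PHOX2A, TBX2, GATA3 and TFAP2B fell by 32.3%, 28.3%, 22.8%, 20.3% and 14.2%. Of 16995 genes tested, 37.6% were called in this experiment, 19.7% lower and 17.9% higher. The median log2FC of the 8 was -0.27 and that of all genes 0.01. Of 6 markers of mesenchymal cells or fibroblasts, 4 were called higher and 1 lower in the same libraries (median log2FC=0.55). They summed to 198 CPM in Puro and 260 CPM in ABCC1 cells, and their part in the values of the 8 factors was not tested. In bulk RNA, fewer cells of a type and less RNA per cell cannot be told apart.

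ISL1 was at 134, 135 and 137 CPM in the Puro libraries and at 90.3, 89.8 and 93.9 CPM in the ABCC1 libraries. The lines lay far apart and the libraries of each close together. The log2FC was -0.56 (SE 0.04, adjusted p=1.9e-06, edgeR with Benjamini-Hochberg adjustment over all genes tested, N=6, n=3).

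PHOX2A was at 464, 436 and 410 CPM in Puro cells and at 282, 279 and 379 CPM in ABCC1 cells. The third ABCC1 library came close to the Puro range but did not enter it. The log2FC was -0.48 (SE 0.11, edgeR adjusted p=0.0075).

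GATA3, which drives sympathetic differentiation, was at 580, 536 and 534 CPM in Puro cells and at 423, 410 and 482 CPM in ABCC1 cells (log2FC=-0.33, SE 0.06, edgeR adjusted p=0.00202). Its relative GATA2 was at 436, 395 and 388 CPM against 366, 347 and 402 CPM, with ranges that overlapped (log2FC=-0.13, SE 0.06, edgeR adjusted p=0.127). Without the third ABCC1 library GATA2 was called lower (log2FC=-0.19, edgeR adjusted p=0.00354, 23.9% of all genes lower), and without the first Puro or the second ABCC1 library it was at -0.079 and -0.080. The third ABCC1 library was the highest of its line for all 8 factors, for SOX11 by a narrow margin.

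TBX2 was at 63.9, 61.3 and 62.0 CPM in Puro cells and at 45.2, 45.3 and 53.8 CPM in ABCC1 cells, with no overlap (log2FC=-0.37, SE 0.07, edgeR adjusted p=0.00146). TFAP2B, which is active in neural crest derivatives, was at 365, 339 and 338 CPM against 294, 286 and 314 CPM, also without overlap (log2FC=-0.22, SE 0.05, edgeR adjusted p=0.00469). The ranges of the lines were apart for 5 of the 8 factors, and for 50.4% of all genes tested.

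HAND2 and SOX11 showed no call in RNA1. HAND2 was at 940, 794 and 812 CPM in Puro cells and at 835, 833 and 877 CPM in ABCC1 cells, the ABCC1 values lying inside the Puro range (log2FC=-0.00, SE 0.06, edgeR adjusted p=0.994). SOX11, a factor of immature neurons, was at 176, 166 and 172 CPM against 161, 166 and 167 CPM (log2FC=-0.06, SE 0.04, edgeR adjusted p=0.261). The background covariate fit, in which the olfactory receptor level of each library was a term, left 1 of the 5 calls, that of ISL1 (log2FC=-0.55), where 5.16% of all genes were called lower. PHOX2A was then at -0.37, TBX2 at -0.34, GATA3 at -0.27 and TFAP2B at -0.20 (edgeR adjusted p of 0.166 to 0.35). In RNA1 this level was lower in all ABCC1 libraries than in all Puro libraries (0.00303 to 0.00377 against 0.00420 to 0.00473 CPM per kb), so the covariate and the line cannot be told apart well there. The levels were also apart in RNA2 (0.143 to 0.434 against 0.494 to 0.671) and RNA3 (1.15 to 1.45 against 1.49 to 1.66), and the same limit holds for the covariate fits of both. PHOX2A also lost its call without the filter on low counts (log2FC=-0.45, edgeR adjusted p=0.168).

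In RNA2 none of the 8 factors was called by edgeR at an adjusted p of at most 0.05, where 1.70% of 34091 genes were. At an unadjusted p under 0.05 there were 2, HAND2 and SOX11, both with higher values in ABCC1 cells, against 21.3% of all genes. DESeq2 called 1, HAND2, against 12.6%. The median log2FC of the 8 was 0.28 while that of all genes tested was -0.19, a value that went to -0.08 with DESeq2 size factors, so each log2FC here is relative to a center that moved by 0.1 with this scaling. The values moved the other way under other settings. With protein-coding genes only, HAND2 was at 0.37, SOX11 at 0.22, GATA2 at 0.19, GATA3 at 0.15, ISL1 at 0.14, TFAP2B at 0.13, PHOX2A at -0.11 and TBX2 at -0.17, none of them called, and under the stricter filter of no library under 10 counts they lay between -0.15 and 0.38.

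HAND2 was at 311, 394 and 353 CPM in Puro cells and at 542, 497 and 465 CPM in ABCC1 cells, all of the latter above all of the former (log2FC=0.51, SE 0.18, edgeR adjusted p=0.129). SOX11 was at 98.7, 134 and 105 CPM against 159, 140 and 136 CPM, with the nearest libraries almost level (log2FC=0.36, SE 0.17, edgeR adjusted p=0.233). GATA2 was at 154, 182 and 177 CPM against 234, 208 and 202 CPM (log2FC=0.33, SE 0.17, edgeR adjusted p=0.27). These 3 of the 8 factors had ranges that did not overlap, as did 29.8% of all genes tested.

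The other factors overlapped between the lines. PHOX2A was at 144, 196 and 189 CPM in Puro cells and at 188, 190 and 162 CPM in ABCC1 cells (log2FC=0.03, SE 0.18, edgeR adjusted p=0.937). ISL1, the factor with the lowest log2FC in RNA1, was at 28.7, 49.1 and 38.5 CPM against 48.5, 44.2 and 47.5 CPM (log2FC=0.27, SE 0.18, edgeR adjusted p=0.372). GATA3 spanned 143 to 233 CPM in Puro cells and 205 to 257 CPM in ABCC1 cells (log2FC=0.29), TFAP2B 117 to 179 against 158 to 189 CPM (log2FC=0.27) and TBX2 46.1 to 50.6 against 40.9 to 54.3 CPM (log2FC=-0.03). Without the first Puro library ISL1 was at 0.12, GATA3 at 0.16 and TFAP2B at 0.16, and without the second at 0.49, 0.49 and 0.46, with no call either way. The first Puro library was the lowest of the 6 for 7 of the 8 factors, HAND2, SOX11 and GATA2 included and TBX2 the exception, and it also had the highest olfactory receptor level, 0.671 CPM per kb against 0.143 to 0.594 in the other libraries. The part of this background in the RNA2 values was not tested beyond the covariate fit, in which line and background cannot be told apart well. It gave no member a call and 12 of all genes, and in it HAND2 was at 0.33, GATA2 at 0.16, SOX11 at 0.15 and GATA3 at 0.0019.

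In RNA3, made from newly transfected lines, 1 of the 8 factors was called by edgeR, PHOX2A, and it was lower in ABCC1 cells, where 2.80% of 36509 genes were called, 0.767% lower and 2.03% higher. PHOX2A was at 216, 352 and 233 CPM in Puro cells and at 151, 175 and 173 CPM in ABCC1 cells. All ABCC1 libraries lay below all Puro libraries, of which the second stood well above the others. The log2FC was -0.68 (SE 0.20, edgeR adjusted p=0.0327), a fall of 37.7%.

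TBX2 and TFAP2B also had ranges that did not overlap, so that 3 of the 8 factors did, and 19.5% of all genes. TBX2 was at 61.6, 59.4 and 60.2 CPM against 44.4, 41.3 and 44.4 CPM, with little spread in either line (log2FC=-0.48, SE 0.16, edgeR adjusted p=0.0888). It was called lower with DESeq2 (adjusted p=0.0449, 1.34% of all genes lower), the replicate block (edgeR adjusted p=0.0282, 1.48%) and protein-coding genes only (edgeR adjusted p=0.00605, 2.7%). TFAP2B was at 217, 279 and 196 CPM against 164, 191 and 189 CPM (log2FC=-0.35, SE 0.19, edgeR adjusted p=0.391), and it was at -0.18 without the second Puro library and at -0.23 without the first ABCC1 library.

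HAND2 was at 295, 438 and 265 CPM in Puro cells and at 438, 530 and 550 CPM in ABCC1 cells, the second Puro library just reaching the lowest ABCC1 library (log2FC=0.60, SE 0.21, edgeR adjusted p=0.104). It was called higher in 6 of 13 alternatives. Among these were DESeq2 (adjusted p=0.0106, 11.2% of all genes higher), the stricter filter (edgeR adjusted p=0.0288, 4.99%), the replicate block (edgeR adjusted p=0.0109, 3.68%) and protein-coding genes only (edgeR adjusted p=0.0128, 7.71%). Leaving out the first ABCC1 library gave a call too (log2FC=0.75, edgeR adjusted p=0.028, 3.89%). With RLE size factors, without the filter on low counts, with the background covariate and without 4 of the 6 libraries in turn it was not called (edgeR adjusted p of 0.098 to 0.97). SOX11 was at 131, 164 and 104 CPM against 150, 175 and 175 CPM (log2FC=0.32, SE 0.19, edgeR adjusted p=0.417), and its log2FC was 0.21 without the third Puro library. GATA2 spanned 236 to 367 CPM in Puro cells and 241 to 303 CPM in ABCC1 cells (log2FC=-0.02), GATA3 237 to 375 against 222 to 293 CPM (log2FC=-0.08) and ISL1 41.6 to 61.3 against 41.7 to 51.4 CPM (log2FC=-0.13), all with overlap.

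The second Puro library of RNA3 was the highest of its line for 7 of the 8 factors, TBX2 being the exception. Without it, edgeR called 4 of the 8, where 6.00% of all genes were higher and 1.09% lower. PHOX2A (log2FC=-0.42) and TBX2 (log2FC=-0.48) were lower in ABCC1 cells, while HAND2 (log2FC=0.86) and SOX11 (log2FC=0.51) were higher, and 2770 genes were called instead of 1021. The call of PHOX2A was lost when any 1 of the other 5 libraries was left out (log2FC of -0.78 to -0.57, edgeR adjusted p up to 0.193) and with RLE size factors (log2FC=-0.62, edgeR adjusted p=0.0971).

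The background covariate, which cannot be told apart well from the line, moved most factors in RNA3. HAND2 went from 0.60 to 0.085, GATA2 from -0.02 to -0.52, GATA3 from -0.08 to -0.67, ISL1 from -0.13 to -0.52 and TFAP2B from -0.35 to -0.71, none of them called. PHOX2A went from -0.68 to -1.10 and was called lower (edgeR adjusted p=0.0187), where 0.282% of all genes were.

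**Figure D3:**
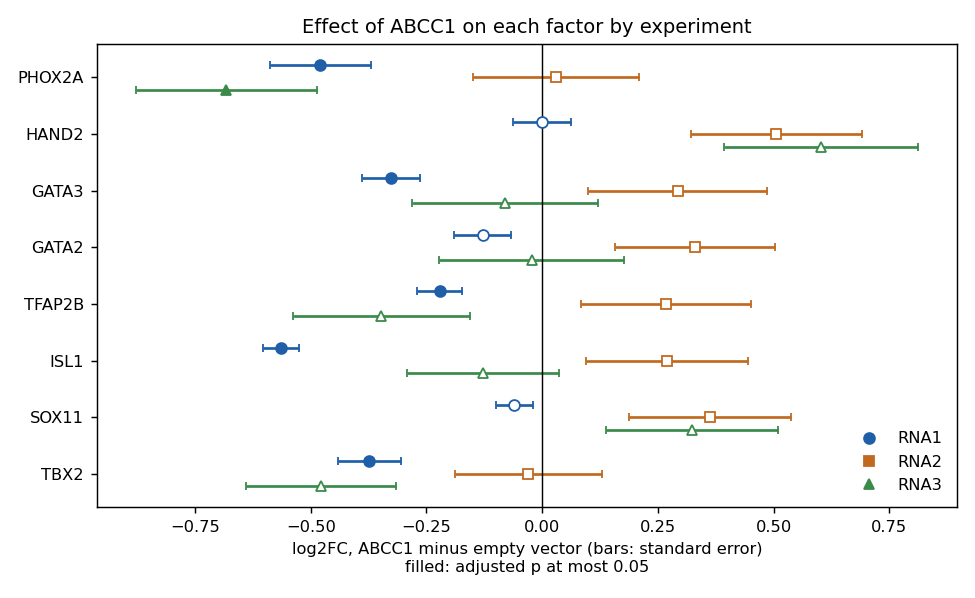
Log2FC of each factor, ABCC1 minus empty vector, in the 3 experiments, from the edgeR fits. Bars are standard errors and filled symbols have an adjusted p of at most 0.05; in RNA1 5 factors were called and lower, in RNA2 none was called, and in RNA3 PHOX2A was called.

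The experiments were then fitted together, with 1 effect of ABCC1 averaged over them and experiment as a term. By the order in the paper RNA1 and RNA2 used the same lines. The 18 libraries are thus repeat platings of few lines, which the fit does not take into account. By edgeR 1 of the 8 factors was called in this fit, HAND2, which was higher (log2FC=0.43, SE 0.11, adjusted p=0.0049). Its log2FC in RNA1 alone was -0.00, so that the average rests on the 0.51 of RNA2 and the 0.60 of RNA3. Over 46225 genes 12.5% were called, 8.77% higher and 3.71% lower, with a median log2FC of -0.16 (-0.26 with DESeq2). SOX11 (log2FC=0.27, adjusted p=0.0533), PHOX2A (log2FC=-0.31, adjusted p=0.0581) and TBX2 (log2FC=-0.22, adjusted p=0.083) missed the threshold, and GATA2, GATA3, ISL1 and TFAP2B had log2FC between -0.08 and 0.13. SOX11 was called in none of 4 alternatives, with log2FC of 0.092 to 0.28. The calls of PHOX2A and TBX2 depended on scaling and filter, since DESeq2 and the RLE size factors called both lower, as they did 11.7% and 6.09% of all genes. Under the stricter filter the log2FC of HAND2 was 0.25 (edgeR adjusted p=0.0143), that of PHOX2A -0.49 and that of TBX2 -0.41, while the median of all genes went from -0.16 to -0.029. ISL1 was then at -0.26 (edgeR adjusted p=0.0144) and TFAP2B at -0.21 (edgeR adjusted p=0.0248). With this filter 4 of the 8 factors were called lower, where 19.2% of all genes were.

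None of the 8 effects differed between experiments by the edgeR interaction test at an adjusted p of at most 0.05, where 1.19% of all genes did. At an unadjusted p under 0.05 there were 2, ISL1 (adjusted p=0.275) and PHOX2A (adjusted p=0.542), against 9.05% of all genes. DESeq2 called 1, ISL1 (adjusted p=0.0264), against 3.64%. The unadjusted count depended on the setting. It was 6 of 8 with DESeq2 (10.3% of all genes) and with RLE size factors (9.73%) and 4 of 8 under the stricter filter (15.7%). The ISL1 log2FC was higher by 0.75 in RNA2 and by 0.41 in RNA3 than in RNA1, and its own value in RNA2 ranged from 0.12 to 0.49 when single libraries were left out. RNA1 differs from RNA2 and RNA3 in library kit and instrument too, and the part of these in such differences cannot be told apart.

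Counts of 2 genes in 1 library give a ratio that no scaling of the library can move. Ratios were looked at after the values above were known and are given as a description without a test. HAND2 and PHOX2A stood in a different ratio in the lines of each experiment. In RNA1 the Puro libraries had 2.02, 1.82 and 1.98 HAND2 counts per PHOX2A count and the ABCC1 libraries 2.96, 2.98 and 2.32. In RNA2 the ratios were 2.16, 2.01 and 1.87 against 2.88, 2.61 and 2.87. In RNA3 they were 1.37, 1.25 and 1.14 against 2.91, 3.03 and 3.18.

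All 9 ABCC1 libraries thus lay above all 9 Puro libraries, across the 2 library kits. By the order in the paper RNA1 and RNA2 used the same lines, so these are repeat platings of few lines and not 9 independent lines of each kind. The log2 ratio of PHOX2A to HAND2 in ABCC1 cells differed from that in Puro cells by -0.50, -0.47 and -1.28. The edgeR interaction test called neither gene (adjusted p=0.542 for PHOX2A and 0.642 for HAND2). In RNA1 PHOX2A was called lower and the HAND2 ranges overlapped. In RNA2 HAND2 had the higher values without a call and the PHOX2A ranges overlapped. In RNA3 the log2FC had opposite signs, and only PHOX2A was called. The background made up at most 2.25% of either level in any library.

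Of the 28 pairs among the 8 factors, 8 had ratio ranges that did not overlap, with the same direction in all 3 experiments, against 8.20% of the 88757826 pairs of 13324 genes with a mean of at least 5 CPM. Within single experiments it was 22 of 28 pairs in RNA1 (52.0% of all pairs), 11 in RNA2 (30.4%) and 20 in RNA3 (32.4%). Pairs that share a gene are not independent of each other. In ABCC1 cells PHOX2A was lower relative to HAND2, GATA2, TFAP2B and SOX11. HAND2 was higher relative to PHOX2A, GATA2, TBX2 and TFAP2B, and TBX2 was lower relative to SOX11.

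The sizes differed between pairs. The log2 ratio of HAND2 to TBX2 was higher in ABCC1 cells by 0.38, 0.55 and 1.11 in RNA1, RNA2 and RNA3, where background reached 19.8% of the TBX2 level. For PHOX2A to SOX11 the differences were -0.43, -0.33 and -1.0, and for PHOX2A to GATA2 -0.36, -0.29 and -0.65. For HAND2 to GATA2 they were 0.13, 0.18 and 0.63, and for PHOX2A to TFAP2B -0.27, -0.25 and -0.32. GATA2, GATA3 and ISL1 formed no such pair among themselves.

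**Figure D4:**
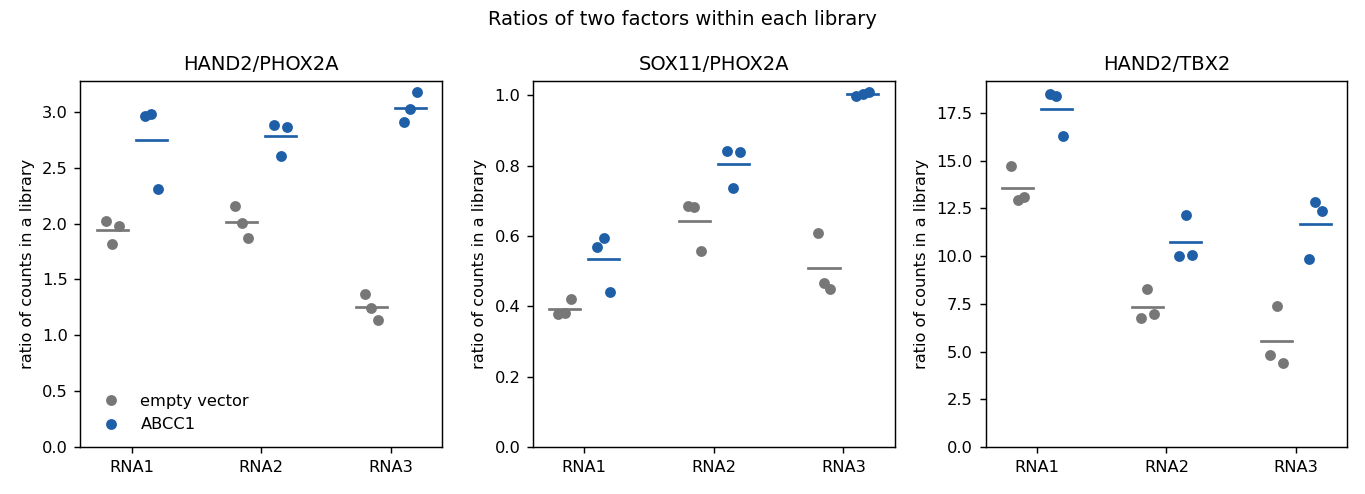
Ratio of the counts of 2 factors within each library, for HAND2 to PHOX2A, SOX11 to PHOX2A and HAND2 to TBX2, by experiment. Each point is 1 library and each line the mean of 3, gray for empty vector and blue for ABCC1 cells; in every panel and experiment the ABCC1 libraries lie above the Puro libraries, and for HAND2 to PHOX2A this also holds across experiments.

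Across the 18 libraries, with log2 CPM centered within each experiment, HAND2 and SOX11 varied together most closely (r=0.96), followed by GATA2 with GATA3 (r=0.92) and GATA3 with TFAP2B (r=0.91). PHOX2A and HAND2 had r=0.02, and HAND2 and TBX2, with r=-0.30, the lowest value of the 28 pairs. The points share library, depth and background, and the coefficients are descriptions.

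Among 12673 genes, those most like PHOX2A were HERPUD1 (r=0.94) and FHL2. Those most like HAND2 were BPNT2 (r=0.98), its T-box neighbor in this list TBX3 (r=0.98) and YWHAG. The closest to SOX11 were NFKBIA (r=0.98), MSANTD3 and CSNK2A1, to GATA2 TTYH3 (r=0.98), KHSRP and MAPK8IP2, and to GATA3 GNB1 (r=0.97), RAC1 and CLTA. TFAP2B was most like NUB1 (r=0.97), USP11 and FAM167A, ISL1 most like SORCS1 (r=0.95), DNAJC13 and MAPT, and TBX2 most like TLE3 (r=0.88), STRA6 and CPT1A.

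The counts of listed genes that follow stand beside the shares of all genes called, which were 17.9% higher and 19.7% lower in RNA1, 1.25% and 0.458% in RNA2, 2.03% and 0.767% in RNA3, and 8.77% and 3.71% in the joint fit. Of the paralogs, 2 of 11 tested were called higher and 3 lower in RNA1, and none of 16 was called in RNA2 or RNA3 (edgeR). In the joint fit 6 of 16 were called, where 12.5% of all genes were. SOX12 (log2FC=0.54), TBX3 (log2FC=0.39) and GATA4 (log2FC=0.38) were higher in ABCC1 cells, and ISL2 (log2FC=-0.96), TBX4 (log2FC=-0.62) and TFAP2D (log2FC=-0.61) were lower. The first 3 are well expressed, whereas the last 3 had means of 0.555 CPM or less (ISL2, TBX4) and 2.85 CPM (TFAP2D) in Puro cells of RNA1 and lay near the background in the other experiments. TBX3, far above TBX2, had log2FC of 0.08, 0.47 and 0.44 in RNA1, RNA2 and RNA3, beside -0.37, -0.03 and -0.48 for TBX2. HAND1 was lower in RNA1 (log2FC=-0.53, edgeR adjusted p=0.000246) beside a level HAND2, with 0.03 and 0.09 in RNA2 and RNA3.

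The transcripts next to the factors were also counted. In RNA1, 5 of 7 tested were lower (19.7% of all genes) and none of 9 was called in the repeats, and in the joint fit 1 of 9 was higher and 2 lower (8.77% and 3.71% of all genes). ISL1-DT, the divergent transcript of ISL1, had log2FC of -0.75, -0.14 and -0.53, beside -0.56, 0.27 and -0.13 for ISL1. TBX2-AS1 had -0.53, -0.52 and -0.50, close to TBX2 in RNA1 and RNA3, and INPPL1, the neighbor of PHOX2A, a common log2FC of 0.29. HAND2-AS1, which shares exonic bases with HAND2, had -0.27, 0.06 and -0.26 against -0.00, 0.51 and 0.60 for HAND2. Since strand was not used and reads on 2 genes were not assigned, reads in the overlapping bases are in neither count.

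Other regulators of the adrenergic circuit were lower in RNA1 in 14 of 21 tested (19.7% of all genes) and higher in 1, lower in 1 of 22 in RNA2 (0.458%) and in 2 of 22 in RNA3 (0.767%), with no other call. In the joint fit 3 of 22 were lower (3.71%) and 1 higher (8.77%). INSM1, a zinc finger repressor of neuroendocrine cells, was called in all experiments with log2FC of -2.67, -1.46 and -2.30 (edgeR adjusted p of 6.98e-07, 0.00664 and 5.21e-14). Its mean was 10.9 CPM in Puro and 1.67 CPM in ABCC1 cells of RNA1, 10.2 and 3.73 in RNA2, and 21.7 and 4.39 in RNA3. ETS1 had a common log2FC of -0.45 and MYCN, the oncogene amplified in many neuroblastomas, of 0.48.

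The effector genes of the adrenergic state include the enzymes that make noradrenaline, among them known targets of PHOX2A, HAND2 and GATA3. Of 30 such genes, 4 were higher and 14 lower in RNA1, 2 and 1 in RNA2, 2 and 4 in RNA3, and 5 and 5 in the joint fit (edgeR). Of all genes 17.9% were higher and 19.7% lower in RNA1, and 8.77% and 3.71% in the joint fit. TH, the rate-limiting enzyme, had log2FC of 0.46, 0.54 and 0.63 and a common log2FC of 0.61 (adjusted p=4.94e-06). DBH, which makes noradrenaline from dopamine, had -0.83, -0.53 and -0.63 and a common log2FC of -0.60 (adjusted p=3.97e-05). The vesicular transporter SLC18A1 was lower in all experiments (log2FC=-1.38, -0.86 and -0.66) and the neuropeptide gene VIP higher in all (log2FC=0.67, 1.35 and 0.90), each called in all. GAP43, of growing axons, had a common log2FC of -0.80 and DLK1, expressed in chromaffin cells, of -0.79.

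**Figure D5:**
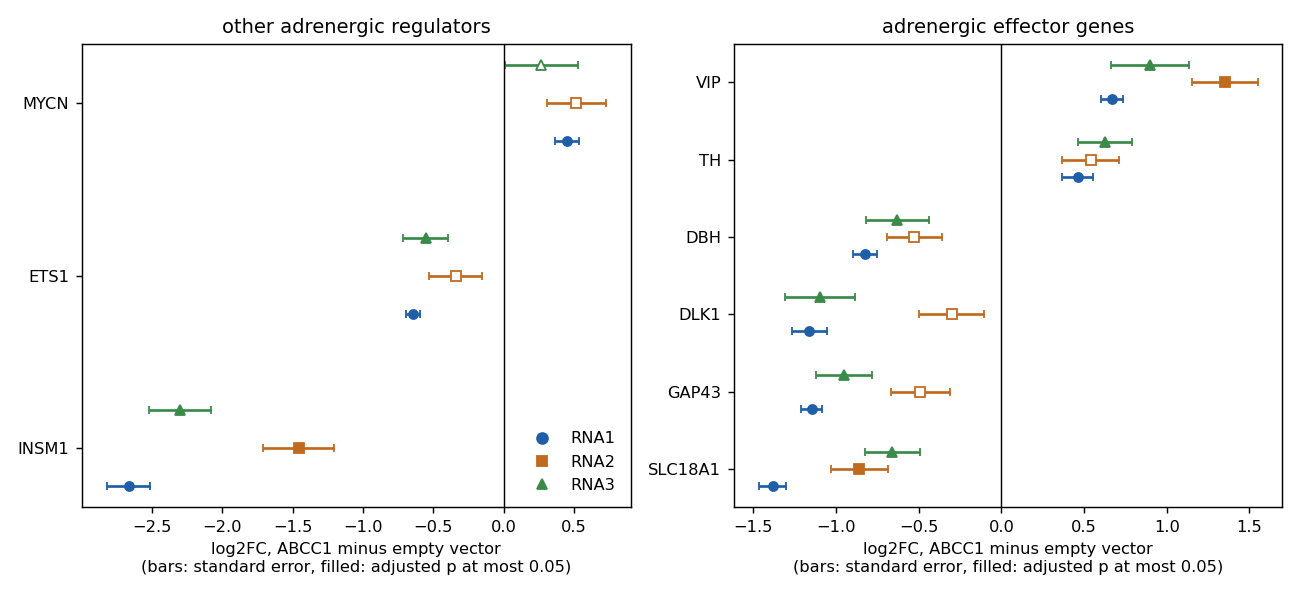
Log2FC of the other adrenergic regulators (left) and of the adrenergic effector genes (right) called in the joint fit and reported here, at most 6 of each by absolute log2FC, in the 3 experiments. Bars are standard errors and filled symbols have an edgeR adjusted p of at most 0.05; INSM1, SLC18A1 and VIP were called in all 3 experiments, and TH and DBH lay on opposite sides of 0 in each.

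Of the mesenchymal state genes, 7 of 19 were higher and 6 lower in RNA1, 1 of 26 was higher in RNA2, none was called in RNA3, and 4 of 26 were higher and 3 lower in the joint fit (edgeR), beside the same shares of all genes. SNAI2 (log2FC=0.79), TBX18 (log2FC=0.77) and NOTCH2 (log2FC=0.57) had higher common effects, and MEOX2 (log2FC=-0.84), IRF1 (log2FC=-0.55) and FN1 (log2FC=-0.40) lower ones. The 6 fibroblast markers, with a higher sum in ABCC1 cells in RNA1, summed to 122 CPM in Puro and 115 CPM in ABCC1 cells of RNA2 and to 164 and 140 CPM in RNA3, with no call in either.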

How the data were processed

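RNA from 18 libraries of BE(2)-m17 cells was sequenced by the authors, who aligned the reads with STAR 2.7.3a to GRCh37 and counted exonic read pairs per Ensembl gene with featureCounts (Subread 2.0.0), without strand. The deposited values are these raw counts. For RNA1 the labels name 2 library kits, and the paper gives a TruSeq kit for RNA1 and a SMARTer Pico kit for the repeats. Rows of 92 spike-ins and 6 vector sequences were left out of the totals and tests. Of the gene IDs, 52338 had a symbol.

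The lines were compared within each experiment with edgeR 4.0.16 in R 4.3.3 (filterByExpr with a minimum count of 10, TMM, robust quasi-likelihood test, two-sided). P-values were adjusted by the Benjamini-Hochberg method over all genes tested, with a threshold of 0.05. The joint fit used all 18 libraries with experiment as a term. CPM used TMM library sizes within an experiment. Exact permutation tests of 3 against 3 libraries cannot give a p below 0.1. The scripts were tested on simulated data. DESeq2 1.42.0, other scalings, filters, a replicate block, a background covariate, protein-coding genes only and leaving out each library were tried. The members, gene lists and tests were chosen with earlier results of these data known. Named genes are the 8 factors, the paralogs, up to 6 genes per list called in the joint fit, and the 3 genes most correlated with each factor (log2 CPM, 0.5 counts added, mean of at least 5 CPM). Some genes that these rules name are not reported here, though the counts of the lists include them. DACH1, PECAM1 and 3 antisense or noncoding genes of the lists had no row matched by symbol. Libraries of a line differed by more than counting noise (chi-square per degree of freedom of 1.48 to 22.4). In ABCC1 cells of RNA1 the value was 1.48 between the first and second library, and 21.5 and 16.1 between these and the third. Depth was lowest in RNA3.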

Additional observations from a re-analysis of the deposited data

How the results depend on the processing

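Calls depended on the setting in each fit, and that of PHOX2A in RNA3 held in 7 of 13 alternatives. In RNA1 the number of factors lower with ABCC1 went from 5 to 1 with the background covariate and to between 5 and 6 when a library was left out (14.4 to 23.9% of all genes). In RNA2 DESeq2 called 1 higher instead of 0. In RNA3 the number higher went from 0 to 1 with DESeq2, a stricter filter (no library under 10 counts), the replicate block and protein-coding genes only, and the number lower from 1 to 2 with DESeq2 (1.34% of all genes lower), the replicate block (1.48%) and protein-coding genes only (2.7%) and to 0 with RLE size factors. Leaving out a library gave 0 to 2 higher and 0 to 2 lower (0.712 to 6.00% and 0.277 to 1.43% of all genes). In the joint fit the number lower went from 0 to 2 with DESeq2 and RLE size factors and to 4 under the stricter filter (PHOX2A, TBX2, ISL1 and TFAP2B), where 19.2% of all genes were lower, and DESeq2 called 1 interaction. The cause was not tested.

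Some signs turned. In RNA1 the HAND2 log2FC was 0.024 without the filter, 0.00298 with the replicate block and -0.045 to 0.074 without single libraries. In RNA2 the TBX2 log2FC was 0.086 with DESeq2 and RLE size factors, 0.030 without the filter and -0.13 to 0.074 without single libraries, and that of PHOX2A was -0.091 under the stricter filter, -0.12 with the background covariate, -0.11 with protein-coding genes only and -0.070 to 0.12 without single libraries. In RNA3 the GATA2 log2FC was 0.040 with DESeq2 and RLE size factors, 0.017 under the stricter filter and -0.10 to 0.22 without single libraries. That of SOX11 was -0.065 with the background covariate, and without single libraries GATA3 ranged from -0.16 to 0.18 and ISL1 from -0.21 to 0.051. In the joint fit GATA3 was at -0.063 with DESeq2, -0.064 with RLE size factors and -0.15 under the stricter filter, where GATA2 was at -0.055. Same-numbered libraries of the lines did not deviate together, with correlations of -0.10 to 0.0064 in RNA1, -0.14 to 0.0014 in RNA2 and -0.041 to 0.097 in RNA3, so the numbers were not taken as pairs. With the replicate block in RNA3, HAND2 (log2FC=0.63, adjusted p=0.0109) and TBX2 (log2FC=-0.48, adjusted p=0.0282) were called and 1885 genes in all instead of 1021, while the block changed no call of a factor in RNA1, RNA2 or the joint fit. The number of all genes called ranged over the settings from 1385 to 7819 in RNA1, 5 to 2556 in RNA2 and 137 to 2770 in RNA3. With protein-coding counts as the total, the levels per kb rose in RNA2 and RNA3 (PHOX2A to 139 and 198).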
